A study of Mus musculus with 10 samples.

Results

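The genes described here mark blood vessel endothelium or carry the signals that build it: Pecam1, Cdh5, Kdr, Flt1, Tek, Emcn, Egfl7, Vegfa, Angpt1 and Angpt2. They were picked by symbol, and all 10 were found among the 22891 genes of the deposited table. The sequenced RNA came from the whole ovary of mice aged 3 weeks, not stimulated with hormones, on a mixed C57/Bl6/N;129SvEv7 strain. The control group held 5 libraries and the group labelled Uba3 cKO held 5. Uba3 provides the catalytic half-site of NEDD8-activating enzyme, which charges the ubiquitin-like protein NEDD8 for transfer to cullins. The labels name neither the Cre driver, nor the cells in which Uba3 was deleted, nor the alleles that the controls carry. Each value is a level on the authors' log2 scale, so a difference of 1 is a doubling, and the sequencing depth behind it is unknown.

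In the ovary, vessels stay outside the basement membrane of the follicle, in the theca layer and the stroma, and the avascular granulosa layer and oocyte depend on diffusion. VEGF-A, largely a product of granulosa and theca cells, acts on the endothelial receptors KDR (VEGFR2), which carries most of the growth signal, and FLT1 (VEGFR1), which binds the ligand tightly and can act as a decoy. Angiopoietin 1 activates the endothelial receptor TEK (TIE2) and steadies vessels, whereas angiopoietin 2 usually blocks that signal and loosens them before sprouting or regression. PECAM1 and VE-cadherin (CDH5) hold endothelial cells together, endomucin (EMCN) coats capillaries and veins, and EGFL7 is a matrix protein secreted by endothelium. Since NEDD8 on cullin 2 is needed for the VHL ligase that degrades HIF, and Vegfa is a HIF target, HIF and hypoxia genes were also measured.

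Promoter sequences from RefSeq (build GRCm38.p6, 250 bases before to 50 after a transcription start) were matched by symbol for 6 of the 10 genes, namely Kdr, Flt1, Tek, Vegfa, Emcn and Egfl7, in 9 windows. Those of Tek, Emcn and Flt1 are shown because the 3 genes varied together across libraries, and that of Kdr because it varied less closely with them. Capitals mark GGAA and its reverse complement TTCC, the core that ETS factors such as ERG and FLI1 bind.
Tek promoter (chr4:94739039-94739338, plus strand): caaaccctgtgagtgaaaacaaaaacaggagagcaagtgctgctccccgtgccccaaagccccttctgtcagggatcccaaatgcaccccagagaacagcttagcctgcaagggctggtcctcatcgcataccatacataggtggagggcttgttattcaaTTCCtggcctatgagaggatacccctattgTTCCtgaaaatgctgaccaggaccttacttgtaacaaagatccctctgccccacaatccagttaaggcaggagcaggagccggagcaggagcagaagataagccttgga
Emcn promoter (chr3:137340828-137341127, plus strand): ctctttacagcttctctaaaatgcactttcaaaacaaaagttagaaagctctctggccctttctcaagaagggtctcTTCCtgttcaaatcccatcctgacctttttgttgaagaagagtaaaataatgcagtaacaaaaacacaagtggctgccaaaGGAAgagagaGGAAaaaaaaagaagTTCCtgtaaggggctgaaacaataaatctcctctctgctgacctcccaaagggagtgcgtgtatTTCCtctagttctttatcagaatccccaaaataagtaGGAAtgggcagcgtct
Flt1 promoter (chr5:147725962-147726261, minus strand): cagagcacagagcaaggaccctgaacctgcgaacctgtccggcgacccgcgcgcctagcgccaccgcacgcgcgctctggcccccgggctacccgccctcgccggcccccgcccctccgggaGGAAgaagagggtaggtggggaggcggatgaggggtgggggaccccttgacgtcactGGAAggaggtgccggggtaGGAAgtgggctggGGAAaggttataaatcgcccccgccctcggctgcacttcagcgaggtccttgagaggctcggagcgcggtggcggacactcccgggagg
Kdr promoter (chr5:75978406-75978705, minus strand): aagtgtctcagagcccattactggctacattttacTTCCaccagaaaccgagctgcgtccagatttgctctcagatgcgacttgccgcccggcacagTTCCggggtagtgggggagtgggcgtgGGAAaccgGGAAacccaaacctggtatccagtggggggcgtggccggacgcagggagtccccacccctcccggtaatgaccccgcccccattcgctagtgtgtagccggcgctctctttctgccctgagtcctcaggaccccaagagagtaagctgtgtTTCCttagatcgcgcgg

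The window of Emcn held 6 matches to GGAA on either strand, that of Kdr 5, that of Flt1 4 and that of Tek 2. At least 1 match occurs in 96.0% of all 32851 promoter windows of this length, with a median of 3, and 15.7% hold 6 or more, so the core is common everywhere. The longer ETS form CAGGAAG, found in 13.3% of all windows, occurred once in Emcn, 2 times in the first Egfl7 window and once in the second, and CCGGAAG (8.86% of all) in none of the 9. The SP1 motif GGGCGG (35.7% of all) occurred 3 times in Flt1, 2 times in Kdr, in both Vegfa windows and in the last Egfl7 window, where it occurred 4 times. Flt1 held the only TATAAA (13.6% of all). The hypoxia core ACGTG (19.6% of all) occurred once, in the downstream Vegfa window (chr17:46025114-46025413, minus strand). The upstream Vegfa window (chr17:46032328-46032627) held no match to it. CACGTG (7.15% of all), which contains ACGTG, occurred in none of the windows. The 4 printed windows differ in base composition: GC content was 41.0% for Emcn, 52.0% for Tek, 60.7% for Kdr and 70.7% for Flt1, against a median of 52.7% over all windows. These matches describe letters in a window and were not measured as binding.

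All 12 oocyte genes, all 10 granulosa genes and all 27 other endothelial genes examined were above the filter. So were 15629 of all 22891 genes, which makes this only a weak check of the labelled tissue. Library medians lay between 6.29 and 6.44, and none of the pairs of libraries had identical columns. Uba3 averaged 10.12 ± 0.18 (SD, n = 5) among controls against 10.12 ± 0.069 (SD, n = 5) in Uba3 cKO ovaries (difference 0.0032, exact two-sided permutation p = 1.0), so it did not check the labels. A whole-organ, gene-level value cannot show a deletion confined to some cells or exons. The labels give no batch or date. They do not state whether each library is a different animal; the p-values therefore cover the spread of these libraries, which may be technical.

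The endothelial genes Cdh5, Pecam1, Emcn and Egfl7 had group means that differed by at most 0.13 log2 units, with wide spreads within the groups. Cdh5 (VE-cadherin, ENSMUSG00000031871, chromosome 8) read 8.92, 8.42, 8.39, 8.22 and 7.97 in control replicates 1 to 5 and 8.60, 8.69, 7.86, 9.01 and 7.84 in Uba3 cKO replicates 1 to 5. Uba3 cKO replicate 4 and control replicate 1 were the highest, Uba3 cKO replicates 3 and 5 and control replicate 5 the lowest, and the groups overlapped over nearly the whole range. The means were 8.39 ± 0.35 and 8.40 ± 0.52 (SD, n = 5 each), a log2 difference of 0.014 (standard error 0.23, 95% interval -0.48 to 0.51, adjusted p = 0.9999 by limma). In bulk tissue, fewer endothelial cells and less RNA per endothelial cell cannot be told apart. Pecam1 (CD31, ENSMUSG00000020717, chromosome 11) read 8.35, 8.12, 8.15, 8.06 and 7.74 among controls and 8.40, 8.35, 7.66, 8.63 and 7.71 in Uba3 cKO ovaries. It put the same 3 libraries lowest as Cdh5 did, and its means were 8.08 ± 0.22 and 8.15 ± 0.44. Emcn (ENSMUSG00000054690, chromosome 3) read 6.78, 6.71, 6.60, 6.45 and 6.27 among controls and 7.08, 6.78, 6.403, 7.19 and 5.99 in Uba3 cKO ovaries. Both the highest and the lowest Emcn library carried the Uba3 cKO label, with a range of 2.30-fold over the 10 libraries. The Emcn means were 6.56 ± 0.21 and 6.69 ± 0.50, a log2 difference of 0.13 (standard error 0.20, 95% interval -0.31 to 0.56). Egfl7 (ENSMUSG00000026921, chromosome 2) read 7.86, 8.04, 8.33, 7.73 and 7.37 among controls and 8.18, 7.999, 7.52, 8.11 and 7.60 in Uba3 cKO ovaries. Here control replicate 3 was highest and control replicate 5 lowest, so this gene kept the low libraries but not the order at the top.

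The VEGF receptors also overlapped between the groups. Kdr (ENSMUSG00000062960, chromosome 5) read 8.72, 8.81, 8.68, 8.82 and 8.45 among controls and 8.47, 9.03, 8.22, 9.07 and 8.60 in Uba3 cKO ovaries. Controls thus sat within a narrow band, inside which lay 2 Uba3 cKO libraries, with 2 above it and 1 below it. The log2 difference was -0.018 (standard error 0.15, 95% interval -0.34 to 0.31, adjusted p = 0.9999 by limma). Flt1 (ENSMUSG00000029648, chromosome 5) read 6.63, 6.31, 6.23, 6.07 and 6.04 among controls and 6.45, 6.60, 5.98, 6.99 and 5.92 in Uba3 cKO ovaries. Its highest and 2 lowest libraries carried the Uba3 cKO label, and the difference of 0.13 had a standard error of 0.19. Membrane-bound and soluble forms of FLT1 come from 1 gene, and a gene-level value does not separate them.

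The angiopoietin receptor Tek gave the smallest p of the 10 genes and still did not pass. Tek (ENSMUSG00000006386, chromosome 4) read 7.14, 6.76, 6.65, 6.54 and 6.61 among controls and 7.04, 7.03, 6.52, 7.26 and 6.84 in Uba3 cKO ovaries. Of the Uba3 cKO libraries 4 of 5 were above the median control, and replicate 3 was the lowest of all 10. The means were 6.74 ± 0.24 and 6.94 ± 0.28 (SD, n = 5 each), a log2 difference of 0.20 (standard error 0.15, 95% interval -0.12 to 0.51), or 1.15-fold with bounds of 0.921 and 1.42. The unadjusted p was 0.201 and the adjusted p 0.9999 by limma, and an exact two-sided permutation test gave p = 0.278. Leaving out 1 library gave limma differences from 0.12 without Uba3 cKO replicate 4 (unadjusted p = 0.440) to 0.30 without Uba3 cKO replicate 3 (unadjusted p = 0.0435). Both had an adjusted p of 0.9999.

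Of the ligands, Vegfa was the steadiest. Vegfa (ENSMUSG00000023951, chromosome 17) read 9.69, 10.14, 9.90, 9.83 and 9.51 among controls and 10.07, 10.03, 9.63, 9.79 and 9.82 in Uba3 cKO ovaries. The controls spanned the whole range, and the Uba3 cKO libraries fell inside it. The log2 difference was 0.054 (standard error 0.11, 95% interval -0.19 to 0.30, adjusted p = 0.9999 by limma). Angpt1 (ENSMUSG00000022309, chromosome 15) read 7.07, 6.42, 6.26, 6.24 and 6.31 among controls and 6.55, 6.74, 6.37, 7.21 and 6.04 in Uba3 cKO ovaries. Control replicate 1 stood well above the other controls, and only Uba3 cKO replicate 4 exceeded it. The Angpt1 difference was 0.12 (standard error 0.21, adjusted p = 0.9999 by limma). Angpt2 (ENSMUSG00000031465, chromosome 8) read 9.43, 8.89, 8.97, 9.22 and 9.01 among controls and 8.83, 8.80, 9.23, 8.62 and 9.23 in Uba3 cKO ovaries. Its Uba3 cKO libraries fell into 3 below every control and 2 above every control but replicate 1. The difference was -0.16 (standard error 0.13, 95% interval -0.45 to 0.13, exact two-sided permutation p = 0.310, limma adjusted p = 0.9999).

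**Figure D1:**
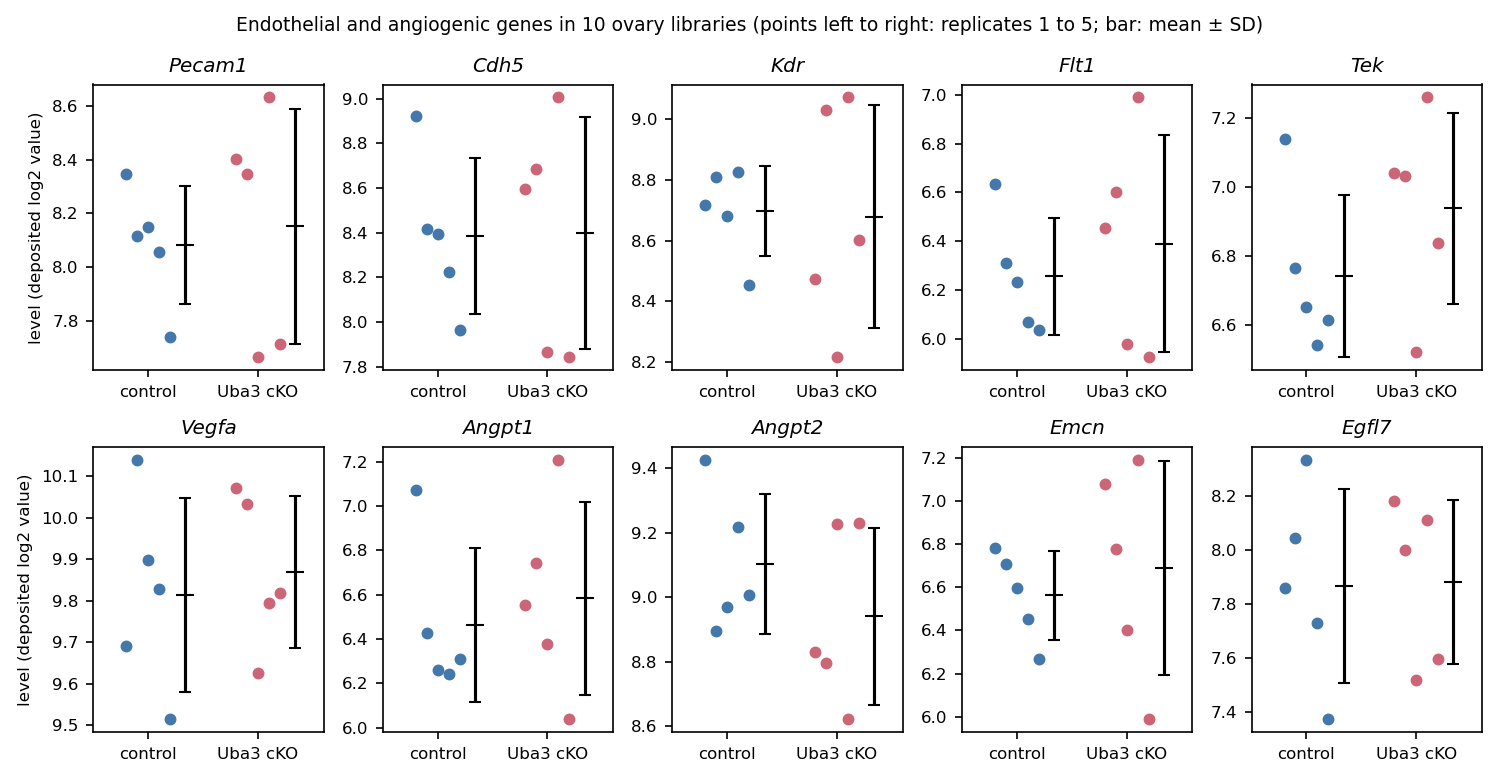
Levels of the 10 genes on the deposited log2 scale (vertical axes, each with its own range) in control and Uba3 cKO libraries. Points from left to right are replicates 1 to 5 and the bars are mean ± SD (n = 5); in every panel the groups overlap, and Uba3 cKO replicate 4 is the highest point for 7 genes.

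No gene of the 10 was called at an adjusted p under 0.05 by limma, against 0.00% of the 15629 genes tested. At an unadjusted p under 0.05 the count was 0 of 10, where 1.79% of all genes passed, and 0 of 10 had groups that did not overlap, where 0.320% of all genes did. Under the Uba3 cKO label 8 genes had the higher mean and 2, Kdr and Angpt2, the lower, where 50.2% of all genes had the higher mean. The median log2 difference of the 10 was 0.062, against 0.00034 over all genes tested. These signs rest on single libraries: without Uba3 cKO replicate 4 only 2 of 10, Tek and Vegfa, had the higher mean and the median was -0.039. Without control replicate 5 the count was 4 of 10 and the median -0.018. All 10 of the 95% intervals lay within 1 log2 unit of 0, and 5 lay within 0.5, from the lowest bound of -0.48 for Cdh5 to the highest of 0.57 for Angpt1. With 1 unit read as a doubling, a 2-fold change of the group mean in whole ovary therefore lies outside each interval.

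**Figure D2:**
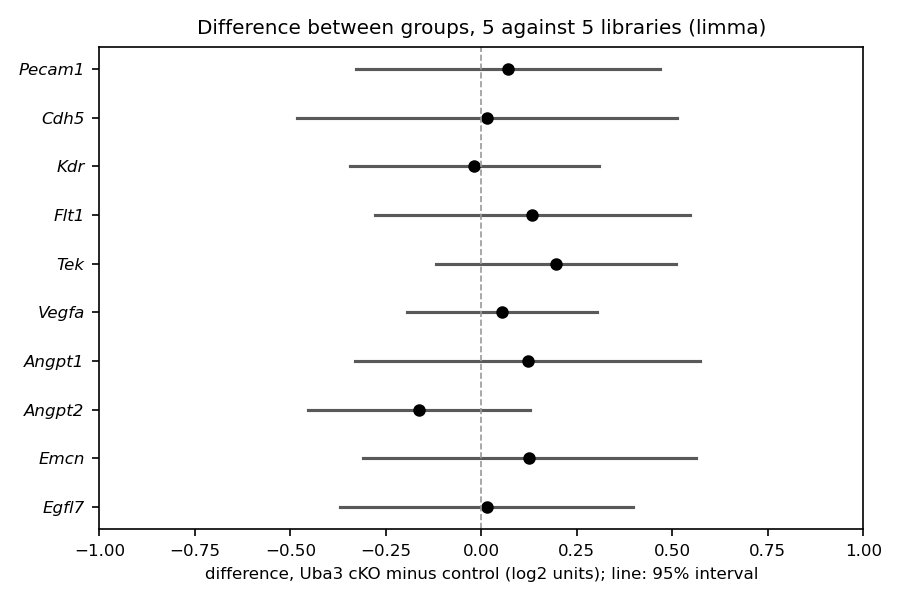
Difference of each gene (vertical axis) between the Uba3 cKO and control means in log2 units (horizontal axis), with points for the estimate and lines for the 95% interval of limma, 5 libraries against 5. Every interval includes 0; Tek (0.20) has the highest and Angpt2 (-0.16) the lowest estimate.

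Ratios of genes inside a library do not move with its scaling, and 4 were compared. The log2 ratio of Angpt2 to Angpt1, the vessel-loosening to the vessel-steadying ligand, was 2.35, 2.47, 2.71, 2.98 and 2.70 in control replicates 1 to 5. Under the Uba3 cKO label it was 2.28, 2.05, 2.85, 1.41 and 3.20 in replicates 1 to 5. The lowest ratio (replicate 4) and the highest (replicate 5) were both in Uba3 cKO ovaries, 3.44-fold apart. The group means were 2.64 ± 0.24 and 2.36 ± 0.70 (SD, n = 5 each), a difference of -0.28 (exact two-sided permutation p = 0.437, adjusted over the 4 ratios p = 0.690). Without Uba3 cKO replicate 4 it was -0.048, and without replicate 5 of that group -0.49. Flt1 to Kdr, the decoy to the signalling receptor, differed by 0.15 (exact permutation p = 0.341, adjusted p = 0.690), from -2.44 ± 0.24 to -2.29 ± 0.27. Vegfa to Kdr differed by 0.072 (exact permutation p = 0.667) and Tek to Angpt1 by 0.074 (exact permutation p = 0.690), both with adjusted p = 0.690. With 5 against 5 the smallest p such a test can give is 0.00794.

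Levels of different genes were compared per kilobase of the longest coding transcript, as log2 value less log2 length, averaged over the 10 libraries. Vegfa was highest at 8.05, followed by Egfl7 at 7.40 and Angpt2 at 7.19. Cdh5 at 6.39, Pecam1 at 6.33 and Kdr at 6.12 formed a middle tier. Emcn at 5.25, Tek at 4.62, Angpt1 at 4.43 and Flt1 at 3.54 were lowest. Egfl7 exceeded Angpt2 in 5 of 10 libraries and Cdh5 exceeded Pecam1 in 6 of 10, with gaps of 0.21 ± 0.50 and 0.060 ± 0.13 (SD, n = 10), so neither pair was ordered beyond its spread. Vegfa over Egfl7, Kdr over Emcn and Angpt1 over Flt1 kept their order in 10 of 10 libraries. On this per-length level Kdr lay above Flt1 and Angpt2 above Angpt1, with the group means in the same order under both labels.

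Most of the variation in endothelial genes was between libraries and not between labels. SDs over the 10 libraries ran from 0.20 for Vegfa to 0.42 for Cdh5, against a median of 0.14 over all genes tested. The median was 0.17 for genes with means from 6 to 8 and 0.13 from 8 to 10, the levels of the 10 genes. Of the 10 genes 8 were above the 90th percentile of all genes, which was not matched for level. Averaged over the 7 endothelial genes (Pecam1, Cdh5, Kdr, Flt1, Tek, Emcn and Egfl7), each less its own mean, the values spanned -0.38 for Uba3 cKO replicate 3 up to 0.49 in Uba3 cKO replicate 4, a range of 1.83-fold. Uba3 cKO replicate 4 was the highest library for 6 of the 7, all but Egfl7. Control replicate 5 and Uba3 cKO replicate 3 were below the mean for 7 of 7 genes, and each was among the lowest 3 for all 7. Uba3 cKO replicate 5 was also below the mean for 7 of 7. Between these, the control replicates 1 to 5 stood at 0.22, 0.045, 0.026, -0.14 and -0.34, and the Uba3 cKO replicates 1, 2 and 5 at 0.20, 0.23 and -0.34. The SD was larger in Uba3 cKO ovaries for 6 of the 7 genes, where 37.8% of all genes had the larger SD there; the difference in spread was not tested.

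**Figure D3:**
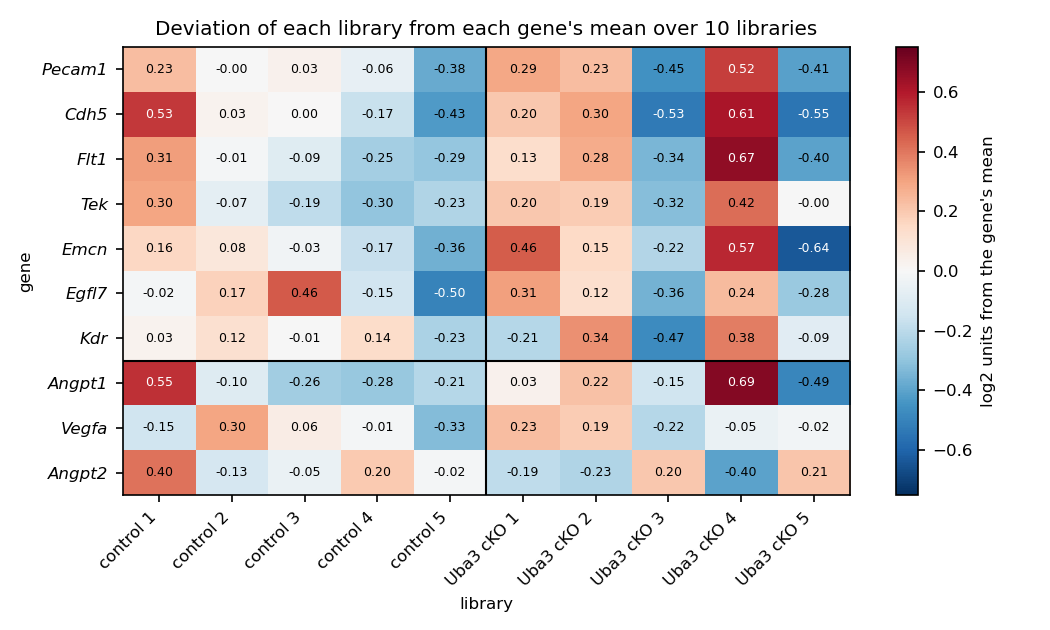
Deviation of each library (columns) from each gene's mean over the 10 libraries (rows), in log2 units by colour and number; the vertical line divides control from Uba3 cKO and the horizontal line divides the 7 endothelial genes from the 3 ligands. Columns of mostly 1 colour, such as Uba3 cKO replicate 4 (red) and control replicate 5 (blue), show endothelial genes moving together, and Angpt2 runs against them in most columns.

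Likeness between genes was described by Pearson's r over the 10 libraries, which share 1 normalization and a varying tissue makeup; no p is given, since the genes were chosen with these data known. All 21 pairs among the 7 endothelial genes were positive, from 0.47 to 0.97 with a median of 0.73. Cdh5 and Pecam1 were the closest pair (r = 0.97, Spearman's rho = 0.94, and r = 0.95 without the 2 libraries farthest from the median). Cdh5 and Flt1 followed (r = 0.96, rho = 1.0, and 0.96 without 2). Kdr followed the other 6 less closely, with r from 0.47 to 0.70 (median 0.62). The 15 pairs without Kdr had a median of 0.83 but also reached down to 0.48, between Tek and Egfl7. Kdr was closer to Tal1, a transcription factor of blood and endothelial precursors (r = 0.94, rho = 0.95, and 0.89 without 2). With the mean of 6 lymphatic endothelial genes, which include the VEGF-C receptor Flt4, Kdr had r = 0.90, rho = 0.96 and r = 0.90 without 2. Tal1 was singled out after its values were seen.

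Genes outside the 10 that had a mean of at least 8 and were most like the endothelial mean were Eng (r = 0.95), Tns2 (0.95), Igfbp7 (0.95), Col1a1 (0.94) and Cd34 (0.94), each over 10 libraries, of 9177 such genes with a median r of -0.14. Eng (endoglin, a TGF-beta co-receptor of endothelium) ranged from 8.14 to 9.35, and Cd34, a sialomucin of vessel and progenitor cells, from 8.43 to 9.35. Col1a1 is instead a fibroblast collagen, and ranged from 10.89 to 12.17. The nearest genes to Angpt1 were Pde5a (r = 0.97), Msrb3 (0.96) and Lama4 (0.96), a laminin chain of vessel basement membranes. Genes close to Vegfa included Gm13456 (r = 0.94) and Fbrsl1 (0.89). Vegfa itself had r from 0.28 to 0.73 with the 7 endothelial genes, lowest with Flt1 and Tek and highest with Egfl7.

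The endothelial pattern was shared with other vessel and stromal lists. Of 27 other endothelial genes 21 had r above 0.7 with the endothelial mean, among them the receptor Tie1 (0.98) and the nitric oxide synthase Nos3 (0.92), both chosen after their values were seen. She (-0.56) and Erg (-0.10) went against it, and Fli1 (0.16) hardly followed. The mean of the 27 had r = 0.99 (rho = 0.94, and 0.99 without the 2 farthest libraries). For 12 mural genes (pericytes and smooth muscle) the mean had r = 0.90 (rho = 0.90, and 0.92 without 2). For 9 stroma genes the mean had r = 0.90 (rho = 0.88, and 0.86 without 2). The oocyte list had r = 0.61 (rho = 0.48, and 0.47 without 2), a value that pooled a positive sign among the Uba3 cKO libraries with a negative one near 0 among controls. The granulosa list had r = 0.30, the immune list 0.035 and the red blood cell list 0.40. After the stroma mean was subtracted in each library, the endothelial mean ranged over 1.36-fold in place of 1.83-fold. Its deviation was then -0.012 ± 0.17 among controls and 0.012 ± 0.16 in Uba3 cKO ovaries (SD, n = 5 each).

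**Figure D4:**
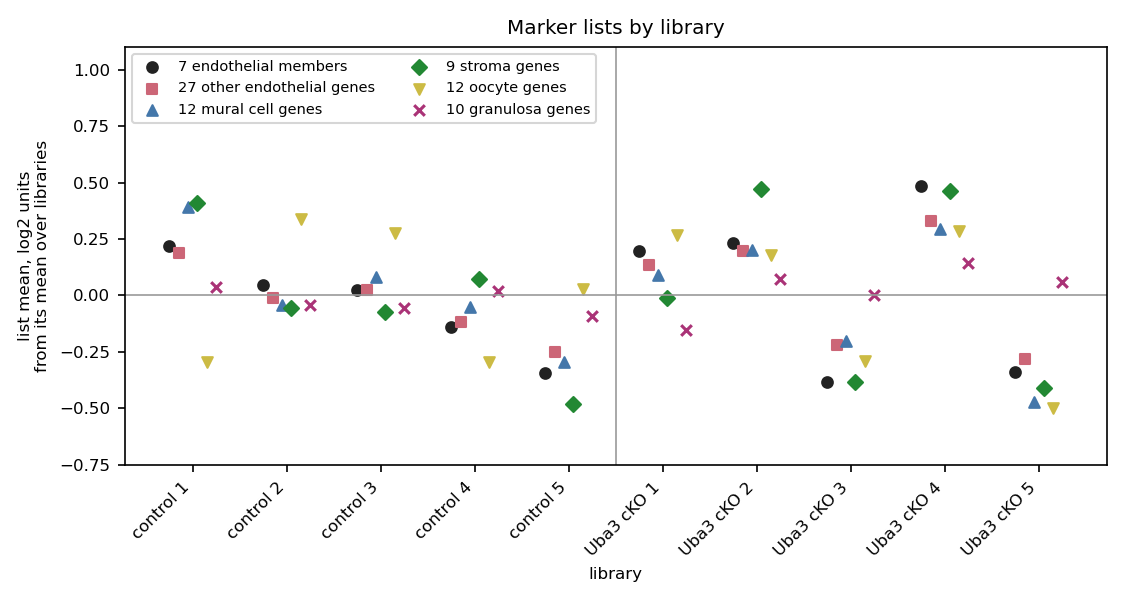
Mean of each marker list (colours and symbols) in each library (horizontal axis), as log2 units from the list's mean over the 10 libraries (vertical axis). The 7 endothelial, 27 other endothelial, 12 mural and 9 stroma genes rise and fall together in both groups, the 12 oocyte genes follow only in part, and the 10 granulosa genes stay within 0.2 of 0.

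The stroma mean was used as a covariate in the fit over all genes, an alternative added after seeing the data. Standard errors fell for all 10 genes, to between 0.10 and 0.15, but not alike. For Cdh5 the standard error went from 0.23 to 0.10, for Vegfa only from 0.115 to 0.113 and for Angpt2 from 0.134 to 0.133. The log2 differences then lay between -0.15 for Angpt2 and 0.17 for Tek, the smallest unadjusted p was 0.143 (Tek), and 0 genes of all tested were called. On the log2 scale, summed stroma levels ranged from 13.67 to 14.67 among controls and from 13.78 to 14.75 in Uba3 cKO ovaries, and summed mural levels from 12.56 to 13.28 and from 12.25 to 13.08. In the mural list 12 of 13 genes were tested; Higd1b was below the filter.

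Angpt2 ran against the endothelial genes in the Uba3 cKO libraries. Over the 5 controls most signs were positive, and control replicate 1 weighed heavily among them. Over the 10 libraries the r of Angpt2 with the 7 lay between -0.62 and -0.39. Among the 5 Uba3 cKO libraries the sign was negative for 7 of 7 genes, whereas among the 5 controls it was positive for 6 of 7 (all but Egfl7); 5 libraries are too few for more than the sign, and the difference between groups was not tested. Within the Uba3 cKO libraries the order was the exact reverse of Cdh5, from replicate 4 (Cdh5 9.01, Angpt2 8.62) to replicate 5 (7.84 and 9.23). Control replicate 1 departed from this line, with the highest Angpt2 (9.43) and the second highest Cdh5 (8.92). Control replicate 5 had the lowest control Cdh5 (7.97) with an Angpt2 of 9.01, below that of control replicate 4 (9.22). For Cdh5 the positive sign among controls rested on control replicate 1. Among control replicates 2 to 5 the lowest Angpt2 (replicate 2, 8.89) came with the highest Cdh5 (8.42). When control replicate 1 was left out of the 10 libraries, r between Cdh5 and Angpt2 moved from -0.42 (rho = -0.55) to -0.91. Between Angpt1 and Angpt2 it moved from -0.32 (rho = -0.48) to -0.86. Control replicate 1 also had the highest mean of the red blood cell list, 8.55 against at most 7.70 elsewhere. The same held for the theca list, 8.71 against at most 8.40, and the mural list, 8.14 against at most 8.04. For the immune list it was 5.52 against at most 5.39. The part of these lists in the position of control replicate 1 was not tested. With the oocyte list Angpt2 had r = -0.86 (rho = -0.79, and -0.91 without the 2 farthest libraries). Its nearest genes were Tes (r = 0.97), Klf6 (0.95) and Coro1b (0.93), and it also followed Foxo1, a transcription factor that AKT keeps inactive (r = 0.86, rho = 0.83, and 0.86 without 2). Gja1, a gap junction gene of granulosa cells, had r = 0.76 with Angpt2 (rho = 0.78, and 0.86 without 2), but does not stand for its list. The mean of the 10 granulosa genes had r = -0.016 with Angpt2 (rho = -0.055, and 0.41 without 2), and its members had r of both signs.

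**Figure D5:**
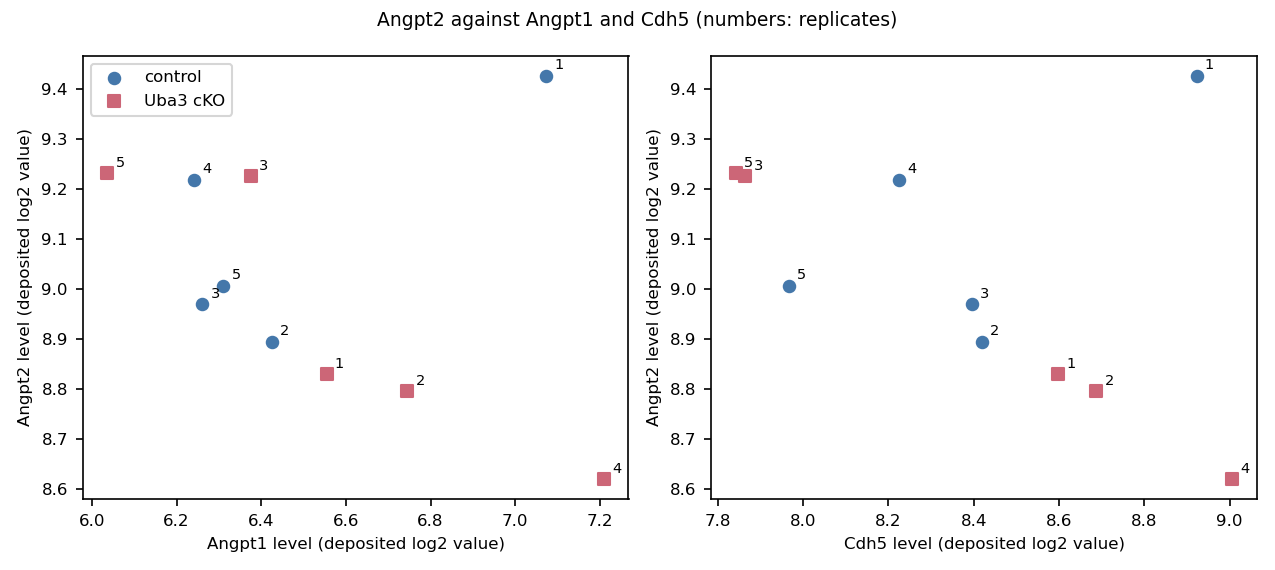
Angpt2 level (vertical axes) against Angpt1 (left) and Cdh5 (right), all on the deposited log2 scale, with 1 point per library, coloured by group and numbered by replicate. Among the Uba3 cKO points Angpt2 is lower where Cdh5 is higher. Control replicate 1 stands off that line at the upper right. Without it r between Cdh5 and Angpt2 over the remaining libraries was -0.91.

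The wider pathway gave no called gene. Of the other VEGF ligands, receptors and co-receptors 6 of 7 were tested (placental growth factor, Pgf, was below the filter), 4 with the higher and 2 with the lower mean in Uba3 cKO ovaries, and a median difference of 0.062, but 3 and 3 without Uba3 cKO replicate 4. Flt4, the receptor for VEGF-C, stood at 8.21 ± 0.12 and 8.35 ± 0.30, and Vegfb at 10.07 ± 0.20 and 10.004 ± 0.036 (SD, n = 5 each). In the TIE pathway 3 of 8 had the higher mean (median -0.038), with Foxo1 at 14.27 ± 0.066 and 14.14 ± 0.16 and Pik3r1, a PI3-kinase subunit, at 11.92 ± 0.24 and 11.77 ± 0.12. Among the 27 other endothelial genes 20 had the higher mean (median 0.076), where 50.2% of all genes did. Without Uba3 cKO replicate 4 the count was 17 of 27 and the median 0.0062. The largest estimate was that of Ptprb, the phosphatase VE-PTP that restrains TEK, at 7.46 ± 0.33 and 7.72 ± 0.48, and Clec14a stood at 8.25 ± 0.30 and 8.44 ± 0.32. Of 14 tested genes of Notch signalling, tip cells and artery-vein identity 11 had the higher mean (median 0.060), but 6 without Uba3 cKO replicate 4 (median -0.017) and 7 without Uba3 cKO replicate 2. Gja5, an arterial connexin, stood at 3.61 ± 0.13 and 3.78 ± 0.16, and Unc5b, a netrin receptor of endothelium, at 8.64 ± 0.29 and 8.42 ± 0.15. Lymphatic genes had the higher mean in 5 of 6 (median 0.11), but in 3 of 6 without Uba3 cKO replicate 4 (median -0.017), with Lyve1 at 6.43 ± 0.11 and 6.59 ± 0.31. In these lists 0 genes were called and limma gave 0 with an unadjusted p under 0.05.

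Regulators of HIF had closely matching levels. Of 9, 3 had the higher and 6 the lower mean (median -0.014), or 5 and 4 without control replicate 4, with the prolyl hydroxylases Egln1 at 10.70 ± 0.14 and 10.61 ± 0.13 and Egln3 at 5.56 ± 0.27 and 5.48 ± 0.19. Of 11 hypoxia targets found, 5 had the higher and 6 the lower mean (median -0.011), a count that ran from 2 to 8 higher with 1 library left out. Ankrd37 stood at 3.84 ± 0.080 and 3.67 ± 0.11 (difference -0.17, unadjusted p = 0.0180, adjusted p = 0.9999 by limma), the only hypoxia target under 0.05 unadjusted, and Pgk1, a glycolytic kinase, at 11.93 ± 0.10 and 11.999 ± 0.13. Angiogenesis inhibitors had the higher mean in 8 of 10 (median 0.11), but in 5 of 10 without Uba3 cKO replicate 4. The 2 with the lower mean were Sema3e, at 6.44 ± 0.21 and 6.23 ± 0.28, and the thrombospondin Thbs1, at 14.26 ± 0.18 and 14.14 ± 0.21. None of these lists held a gene called over all genes tested.

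Lists of neighbouring cells also held 0 called genes and 0 at an unadjusted p under 0.05. The mural list had a mean above that of controls in Uba3 cKO ovaries in 5 of 12 (median -0.010), ranging from 0 of 12 without Uba3 cKO replicate 4 to 9 of 12 without control replicate 1 or Uba3 cKO replicate 5, with Des at 7.22 ± 0.57 and 6.94 ± 0.21 and Tagln at 4.73 ± 0.19 and 4.61 ± 0.17. The stroma list had it in 7 of 9 (median 0.041), but in 2 of 9 without any 1 of control replicate 5 and Uba3 cKO replicates 2 and 4, with Col1a2 at 12.32 ± 0.45 and 12.50 ± 0.55 and Tcf21 at 9.45 ± 0.39 and 9.58 ± 0.35. Red blood cell genes had the lower mean in 5 of 5 tested (median -0.24), but without control replicate 1 the higher in 4 of 5 (median 0.060), with Hbb-bs at 10.28 ± 0.54 and 10.01 ± 0.44 and Hbb-bt at 6.71 ± 0.74 and 6.47 ± 0.29. Immune genes had the higher mean in 3 of 10 (median -0.049), but in 5 of 10 without control replicate 1, with Cd52 at 3.45 ± 0.052 and 3.38 ± 0.068 and C1qb at 6.57 ± 0.20 and 6.46 ± 0.20. Theca genes had it in 1 of 6 (median -0.10), but in 3 of 6 without control replicate 1 (median 0.069) and in 4 of 6 without Uba3 cKO replicate 5 (median 0.049), where Insl3, a theca hormone, was at 3.58 ± 0.27 and 3.47 ± 0.084, and Hsd3b1 at 13.52 ± 0.50 and 13.72 ± 0.24. Oocyte genes had it in 3 of 12 (median -0.036), ranging from 1 of 12 without control replicate 1 or Uba3 cKO replicate 1 to 11 of 12 without Uba3 cKO replicate 5, with Figla at 5.36 ± 0.48 and 5.16 ± 0.23 and Kit at 9.38 ± 0.36 and 9.55 ± 0.36, and granulosa genes in 6 of 10 (median 0.048), with Inhbb at 14.31 ± 0.30 and 14.60 ± 0.45 and Hsd17b1 at 13.10 ± 0.17 and 13.21 ± 0.13.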

How the data were processed

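The deposited table holds 1 log2 value per gene and library, from -0.21 to 20.19; no transform is named in the deposited file, and whole reads were not recovered from it. The tools fastp, STAR, featureCounts and DESeq2 and the build GRCm39 are named per the submitters' processing notes, with no versions or roles. Symbols were matched for 22188 of 22891 identifiers through GENCODE M21 names. The median SD over libraries was 0.17 for genes with means from 6 to 8 and 0.085 from 2 to 4, so differences of genes with low means may be understated. The 15629 genes whose mean, taken as linear values, reached 10 (log2 3.32) were tested with limma 3.58.1 in R 4.3.3 (mean-variance trend, no covariate, Benjamini-Hochberg over all genes, threshold 0.05), checked on simulated data. Single values were compared by exact two-sided permutation tests (SciPy 1.17.1). Lengths are of the longest protein-coding transcript in GENCODE M21. Named genes were the 10 genes, Uba3, up to 4 called or otherwise the 2 lowest-p genes of each list, and the genes most like the endothelial mean (5) or each ligand (3) by Pearson's r; others named were chosen after their values were seen. One gene that this rule names is not reported here. The genes and lists were chosen with earlier results of these data known. Alternatives were other filters, no trend, library weights, a replicate block, median centring and leaving out each library; the stroma covariate and the lists without each library were added after seeing the data.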

Additional observations from a re-analysis of the deposited data

Results flagged for a closer look

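Angpt1 in control replicate 1 was 7.07, set apart from the other 4 controls, which lay between 6.24 and 6.42. Its gap to the nearest was 0.78 of the range of the group, above the critical value of 0.71 for 5 samples. The log2 ratio of Tek to Angpt1 in the same library was 0.065, below the other controls at 0.30 to 0.39 (gap 0.72 of the range). Both values share the Angpt1 measurement of 1 library. Of 30 groups checked 2 were set apart in this way, and chance sets apart about 1 in 20.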

How the results depend on the processing

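The count of 0 called genes held under all 17 alternatives, with 133 to 604 genes at an unadjusted p under 0.05. No alternative called any of the 10 genes, and their adjusted p stayed at 0.999 or above. Leaving out 1 library, log2 differences ranged from -0.051 to 0.19 for Pecam1, -0.14 to 0.15 for Cdh5, -0.12 to 0.097 for Kdr, -0.016 to 0.25 for Flt1, -0.021 to 0.14 for Vegfa, -0.034 to 0.27 for Angpt1, -6.7e-05 to 0.30 for Emcn and -0.11 to 0.13 for Egfl7, so each sign turned in at least 1 case; Tek (0.12 to 0.30) and Angpt2 (-0.24 to -0.082) kept theirs. Without 1 library, Uba3 ranged from -0.056 to 0.066, Angpt2 to Angpt1 from -0.49 to -0.048, Flt1 to Kdr from 0.073 to 0.25, Vegfa to Kdr from -0.029 to 0.19 and Tek to Angpt1 from -0.037 to 0.15. With median centring Uba3 differed by -0.0020, and with the stroma covariate Cdh5 differed by -0.042 and Egfl7 by -0.012. The cause of these turns was not tested. Replicate numbers did not pair the samples: correlations of same-numbered deviations ran from -0.27 to 0.28, and 1 of 5 controls correlated best with its own number. With the replicate block 0 genes were called and 311 were at an unadjusted p under 0.05, against 280 without it. The differences of the 10 genes and of Uba3 were the same, for example 0.20 for Tek and 0.0032 for Uba3. A block with 1 library of each group cannot change them. For the ratio of Angpt2 to Angpt1, -0.28 as before, an exact paired permutation test gave p = 0.6875. The planned pseudocount alternative was not run, since the values are already log2. The depth is unknown, so no counting limit can be given.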
